A study of Caenorhabditis elegans with 2 samples.

Results

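Chromatin immunoprecipitation and sequencing (ChIP-seq) of SWSN-7 gave 3976 regions in Caenorhabditis elegans larvae. Of these, 834 (21.0%) were promoters with annotated 5′ ends on a single strand and the centre of SWSN-7 binding close to the start. They were chosen by position alone. A region had to lie on an autosome, touch no tRNA gene, and have its summit (the point of highest enrichment) between 1000 bp upstream and 500 bp downstream of 5′ ends of protein-coding transcripts that all lay on the same strand. The nearest of these 5′ ends had to be at most 300 bp from the summit. Such regions are called near-start promoters here. Strand and distance limits are therefore part of the choice. So is signal value against weaker candidates, since the IDR regions start at 88.4 and the weaker candidates of the same position end at 88.3. The signal value within the IDR list, the direction of the offset, base composition, words and gene content are not part of it.

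The series held 1 group of 2 biological replicates and no contrast between conditions. Both were whole hermaphrodites of strain OP512, genotype unc-119(tm4063) III; wgIs512, in which the transgene wgIs512 gives SWSN-7 with a C-terminal GFP-FLAG tag. The worms were L1 larvae taken 6 hours after synchronization, which had been done by bleaching and starvation, and the precipitation was directed at GFP. The promoter of the transgene and its copy number are not given in the labels, no untagged group was analysed here, and chromatin of all tissues was mixed.

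SWSN-7 is the ARID-domain subunit of PBAF, a class of the SWI/SNF chromatin remodelling complexes, which use ATP to slide or evict nucleosomes. Such complexes are known for work at promoters and enhancers, where they keep stretches of DNA open to transcription factors and RNA polymerase II. In C. elegans many transcripts receive a spliced leader by trans-splicing, which removes the original first bases, so an annotated 5′ end can mark the splice acceptor and lie downstream of the place where transcription began.

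From 4087 entries of the irreproducible discovery rate (IDR) list, 3976 merged regions remained, of which 3251 were autosomal and 3132 of those touched no tRNA gene. A protein-coding 5′ end lay in the window at 2074 of them, and 5′ ends on a single strand at 1381, split by the 300 bp limit into the 834 near-start promoters and 547 promoters with the summit farther away, called far-summit promoters. The other 693 had 5′ ends on both strands and are called divergent promoters. Weaker candidates are regions of the pooled candidate list that touch no IDR region, and 3256 of them met the position rule of the near-start promoters. That list holds background too, so these are not all binding sites. The near-start promoters lay nearest to 815 genes, 4.73% of the 17242 autosomal protein-coding genes. In 786 of them the window held a single gene, and in 48 more than 1, so that the gene served there cannot be told. Gene swsn-7 itself had no near-start promoter, but a far-summit one with the summit at -763 bp and a signal value of 544.3.

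The summits sat on short GC-rich stretches in which a few 8-base words recurred. The most frequent was CTGCGTCT, found on either strand within 100 bp of 155 summits. The following 120-base windows at the summit are shown because they are those with the highest signal value that hold it, among windows that lie wholly before the 5′ end and touch no exon. They come from the RefSeq assembly WBcel235, which is build ce11, each read along the strand of its gene and upstream of its 5′ end. Capitals mark CTGCGTCT and the other 3 words discussed here, GTGTTTGC, GCGCACTT and GCGCGTTT, or their reverse complements AGACGCAG, GCAAACAC, AAGTGCGC and AAACGCGC.

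sec-61.G, chrV:10897311-10897430, minus strand: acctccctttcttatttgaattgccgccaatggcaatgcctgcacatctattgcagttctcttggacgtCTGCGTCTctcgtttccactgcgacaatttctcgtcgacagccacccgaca
ntl-11, chrIV:15471556-15471675, minus strand: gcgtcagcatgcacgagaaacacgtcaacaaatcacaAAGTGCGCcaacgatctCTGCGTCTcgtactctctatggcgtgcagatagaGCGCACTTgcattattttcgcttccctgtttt
C34C12.8, chrIII:3460199-3460318, plus strand: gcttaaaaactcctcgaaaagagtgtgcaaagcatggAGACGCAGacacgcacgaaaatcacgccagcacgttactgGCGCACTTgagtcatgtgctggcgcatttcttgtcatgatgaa
Y73F8A.27, chrIV:15472534-15472653, plus strand: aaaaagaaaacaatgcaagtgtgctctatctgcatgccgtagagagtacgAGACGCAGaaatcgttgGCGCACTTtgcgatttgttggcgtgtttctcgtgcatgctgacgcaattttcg

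Gene sec-61.G encodes a subunit of the channel through which proteins enter the endoplasmic reticulum, and ntl-11 a subunit of the CCR4-NOT complex, which shortens poly(A) tails. The windows at ntl-11 and Y73F8A.27 lie 858 bp apart and point in opposite directions. Read on opposite strands they share an unbroken stretch of 24 bases, and much of the sequence beside it also matches apart from single bases. They are thus not independent examples of the word, and part of the reads at one may belong to the other. How the authors placed such reads is not known here.

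GTGTTTGC lay at 76 near-start promoters. These are the windows with the highest signal value that hold it.

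scc-2, chrII:255300-255419, minus strand: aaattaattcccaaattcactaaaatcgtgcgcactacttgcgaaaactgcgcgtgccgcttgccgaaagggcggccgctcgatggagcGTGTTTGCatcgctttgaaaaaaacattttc
mrpl-28, chrII:156047-156166, minus strand: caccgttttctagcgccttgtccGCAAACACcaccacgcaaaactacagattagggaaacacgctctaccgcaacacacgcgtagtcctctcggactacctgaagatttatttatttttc
mog-4, chrII:14561747-14561866, minus strand: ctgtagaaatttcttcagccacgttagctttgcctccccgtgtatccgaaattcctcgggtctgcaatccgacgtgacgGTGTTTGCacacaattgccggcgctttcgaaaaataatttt

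Gene scc-2 encodes the loader of cohesin, the ring that holds sister chromatids together, mrpl-28 a protein of the mitochondrial ribosome, and mog-4 an RNA helicase of splicing. GCGCACTT lay at 53 and GCGCGTTT at 65 near-start promoters, and the windows with the highest signal value that hold either of them without CTGCGTCT follow.

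pcn-1, chrIV:4049654-4049773, minus strand: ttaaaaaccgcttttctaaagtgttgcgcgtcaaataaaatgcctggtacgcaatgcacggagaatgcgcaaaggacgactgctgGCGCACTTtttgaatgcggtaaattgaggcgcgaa
dnj-9, chrII:4851765-4851884, plus strand: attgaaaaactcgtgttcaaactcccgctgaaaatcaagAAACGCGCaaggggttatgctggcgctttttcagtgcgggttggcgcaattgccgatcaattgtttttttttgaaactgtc
W03F8.4, chrIV:5183798-5183917, plus strand: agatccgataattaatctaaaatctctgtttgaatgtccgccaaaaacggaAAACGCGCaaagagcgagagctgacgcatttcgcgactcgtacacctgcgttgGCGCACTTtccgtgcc

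Gene pcn-1 encodes PCNA, the sliding clamp of DNA replication, and dnj-9 a J-domain co-chaperone. The near-start promoters with the 2 highest signal values hold none of the 4 words in these windows.

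rpl-3, chrIII:3867511-3867630, plus strand: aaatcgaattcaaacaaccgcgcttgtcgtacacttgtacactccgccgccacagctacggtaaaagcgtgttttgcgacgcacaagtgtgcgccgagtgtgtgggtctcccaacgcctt
cdc-48.1, chrII:10563510-10563629, minus strand: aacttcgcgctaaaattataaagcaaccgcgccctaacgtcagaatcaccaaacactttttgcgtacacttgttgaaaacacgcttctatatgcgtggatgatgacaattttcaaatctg

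Gene rpl-3 encodes a protein of the large ribosomal subunit and cdc-48.1 the AAA ATPase that pulls ubiquitylated proteins out of complexes. C34C12.8, Y73F8A.27 and W03F8.4 were named here after their values were seen. A match of a word is a description of the letters and does not show which protein bound there.

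Among the sets compared, CTGCGTCT was more common at promoters with 5′ ends on a single strand than at the others. Regions outside promoters and on X were not searched for it. It lay in the 200 bp at the summit at 18.6% of near-start promoters (155 of 834, interval 16.0 to 21.4). The share was 23.6% at far-summit promoters, 8.80% at divergent promoters and 6.36% at weaker candidates of the same position. In the 200 bp before the most upstream 5′ end of each autosomal protein-coding gene it was 2.98%. For words, motifs and GC, these are the stretches before all autosomal 5′ ends named below. Near-start minus divergent came to 9.78 percentage points (Newcombe interval 6.36 to 13.1), and near-start minus far-summit to -5.0 (-9.49 to -0.632). All intervals given here are 95% and cover counting error over regions, not differences between animals.

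The word sat close to the summits and had a preferred strand. Of its 170 matches at near-start promoters, 136 (80.0%, interval 73.2 to 85.7) were centred within 50 bp of the summit, against 68.6% of 223 matches at weaker candidates. No window held more than 2 matches, and 15 held 2. Where a window had it on a single strand, that was the strand of the gene in 97 of 152 cases (63.8%, interval 55.6 to 71.4). At divergent promoters, read on the strand of the nearest gene, it was so in 53.4% of 58 cases (interval 39.9 to 66.7). The preference was not particular to near-start promoters: the share was 65.1% at far-summit promoters (56.1 to 73.4) and 59.6% at weaker candidates (52.4 to 66.5). The match was part of a longer preferred sequence: the base before it was T in 76.5% of the 170 matches and the base after it C in 84.1%, against 78.0% and 82.5% at weaker candidates.

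Windows with CTGCGTCT were richer in G and C, with a median of 44.5% GC against 40.0% in windows without it. Within windows of 38 to 43% GC, a band chosen after the values were seen, it lay at 18.1% of 260 near-start promoters and at 8.08% of 879 weaker candidates, a difference of 10.0 points (5.35 to 15.4). The word also ranked first among 8-base words by that difference, which is thus no independent support for it. In the same band the difference from far-summit promoters was -0.804 points (-9.14 to 6.77), an interval that holds 0. The intervals of signal value with and without the word overlapped, at medians of 204 (interval 176 to 234, 155 regions) and 193 (179 to 211, 679 regions).

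The other 3 words had the opposite order between near-start and far-summit promoters. GTGTTTGC lay at 9.11% of near-start promoters, at 6.03% of far-summit, 12.1% of divergent promoters and 1.44% of weaker candidates, and in 1.91% of the stretches before all autosomal 5′ ends. Near-start minus far-summit was 3.08 points (0.163 to 5.82). GCGCACTT lay at 6.35% of near-start and 2.74% of far-summit promoters (difference 3.61 points, 1.34 to 5.76), at 6.35% of divergent promoters, 1.01% of weaker candidates and 0.882% of the stretches before all autosomal 5′ ends. GCGCGTTT lay at 7.79% of near-start and 4.20% of far-summit promoters (difference 3.59 points, 0.988 to 6.04), at 8.37% of divergent promoters, 1.07% of weaker candidates and 1.14% of the stretches before all autosomal 5′ ends. These 3 words were picked from 32837 8-base words ranked by near-start minus weaker share in the same windows, so their distance from the weaker candidates is the ground of the choice and no support for it.

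Near-start promoters with GCGCGTTT had a median signal value of 273 (interval 202 to 423, 65 regions), against 192 (177 to 205, 769 regions) without it. With GCGCACTT the median was 271 (193 to 420, 53 regions), against 192 (178 to 205) without, and with GTGTTTGC 211 (170 to 283, 76 regions), against 194 (181 to 208) without. In the IDR list the intervals with and without each of the 3 words overlapped. Replicate 1 gave medians of 128 (91.8 to 174) with GCGCGTTT and 81.6 (74.3 to 89.2) without, with intervals apart. Replicate 2 gave 152 (114 to 246) and 111 (103 to 119), with intervals that overlapped. The GTGTTTGC matches also went on beyond the word, with A at the position 10 bases after its first base in 79.2% of 77 matches and C at the next in 62.3%. At least 1 of the 4 words lay at 315 near-start promoters (37.8%, interval 34.5 to 41.2). The share was 34.6% (30.6 to 38.7) at far-summit and 32.6% (29.1 to 36.2) at divergent promoters. It was 9.64% at weaker candidates and 6.59% in the stretches before all autosomal 5′ ends. CTGCGTCT shared its window with another of the 4 at 21 near-start promoters.

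The rise in GC was narrow. Averaged over the near-start promoters, GC was 52.1% in the 20 bp from the summit on, 31.9% in the 20 bp that begin 140 bp before it and 34.7% between 400 and 301 bp before it. Weaker candidates of the same position reached 40.7% at the summit from 33.9% at the same distance before it. Divergent promoters had a like peak of 52.7% with deeper troughs, down to 28.0%, and far-summit promoters a peak of 51.5%. The median over 200 bp was 40.5% GC (interval 40.0 to 41.5) at near-start promoters, 44.5% at far-summit, 39.0% at divergent promoters and 37.5% at weaker candidates, against 33.0% before all autosomal 5′ ends. Over 400 bp the median of near-start promoters exceeded that of weaker candidates by 0.125 points, against 3.0 over 200 bp and 7.0 over 100 bp. Along the strand of the gene the bases were unequal, with 23.1% C and 18.5% G, and 32.4% T and 26.0% A. Before all autosomal 5′ ends they were unequal too, with 18.9% C and 14.5% G, and 36.4% T and 30.2% A. How the recovery of fragments in sequencing depends on GC was not tested.

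**Figure D1:**
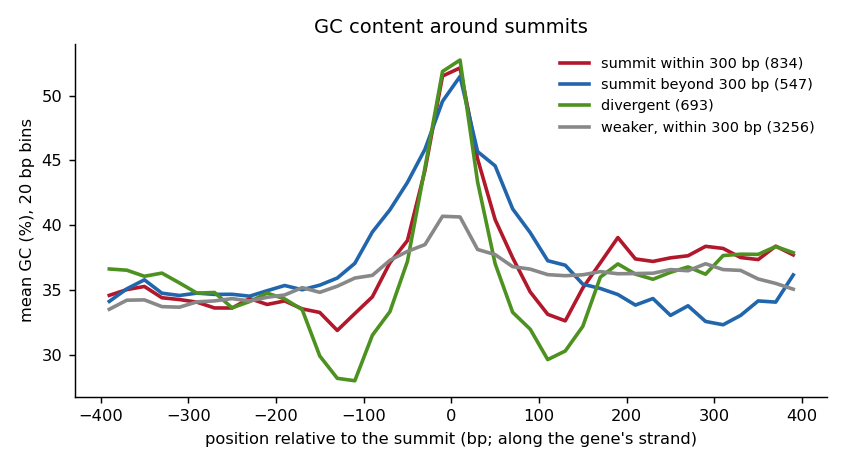
Mean GC content in percent (vertical axis, 20 bp bins) against position relative to the summit in bp (horizontal axis, along the strand of the nearest gene) for 834 near-start promoters, 547 far-summit promoters, 693 divergent promoters and 3256 weaker candidates that meet the near-start position rule. The 3 promoter classes peak between 51.5% and 52.7% at the summit, and the weaker candidates at 40.7%.

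Of the other motifs searched on both strands, repeats of GA and CG were more frequent at near-start promoters than before all autosomal 5′ ends, and AT-rich ones less frequent. Against the other promoter classes the order differed from motif to motif. GAGAGA lay at 39.8% of near-start promoters, against 51.6% of far-summit and 27% of divergent promoters, 22.4% of weaker candidates and 16.2% of the stretches before all autosomal 5′ ends. On the strand of the gene it read mostly as its complement TCTCTC: of 287 windows with it on a single strand, 32.8% had GAGAGA on the gene's strand. That share was 32.4% at far-summit promoters, 32.3% at weaker candidates and 48.0% at divergent promoters, so the bias was not particular to near-start promoters. CGCGCG lay at 9.83% of near-start promoters against 11.1% of divergent promoters and 2.27% of all such stretches, and TTCGCGC, which like CGCGCG can overlap GCGCGTTT, at 5.40% and 1.50%. GGGCGG, a binding site of Sp1-like factors, lay at 11.3% and 5.84%, and GCGGGAA, an E2F-like site, at 5.28% and 2.29%. Between near-start and far-summit promoters the share of CGCGCG differed by 0.874 points, that of TTCGCGC by 0.0940, that of GGGCGG by -0.0636 and that of GCGGGAA by 1.80, each with an interval that held 0.

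TGATAA, which binds GATA factors, lay at 10.4% of near-start promoters, against 18.9% of weaker candidates and 22.9% of the stretches before all autosomal 5′ ends, and within the band of 38 to 43% GC at 10.0% against 18.1% of weaker candidates (difference -8.09 points, -12.2 to -3.21). The low share was not particular to near-start promoters. TGATAA lay at 8.78% of far-summit and 9.52% of divergent promoters, with differences of 1.66 and 0.908 points and intervals that held 0. A run of 8 T lay at 13.4% against 26.4% of all stretches, TATAAA at 16.5% against 30.6%, the splice acceptor TTTTCAG at 12.7% against 22.3%, and AAAATTTT at 4.20% against 9.62%. The first 3 of these were more frequent than at far-summit promoters. There the T run lay at 8.23% (difference 5.20 points, 1.83 to 8.40), TATAAA at 11.7% (4.85, 1.05 to 8.46) and TTTTCAG at 8.78% (3.93, 0.545 to 7.14). At divergent promoters the T run was more frequent, at 18.6% (near-start minus divergent -5.19 points, -8.93 to -1.50). TATAAA lay at 16.2% of them (0.385, -3.38 to 4.08) and TTTTCAG at 16.2% (-3.45, -7.05 to 0.0746), both with intervals that held 0. The places compared differ, since the stretches end at the base before the 5′ end and so include any acceptor there. Windows at near-start summits often end before it, and those at far-summit promoters cannot reach the nearest 5′ end. How much this adds to the differences was not tested. The T run was on the gene's strand at 8.51% of near-start promoters and on the other strand at 5.76%. In the stretches before all autosomal 5′ ends these shares were 18.0% and 10.9%. The E-boxes CACGTG and CAGCTG lay at 7.31% and 6.24%, against 4.35% and 3.46% of all stretches, TGACGTCA, the CRE site, at 2.52% against 0.998%, and TGANTCA, the AP-1 site, at 5.76% against 6.88%. In the same order, far-summit promoters had 6.95%, 7.13%, 1.46% and 4.57%, and divergent promoters 3.61%, 5.19%, 1.44% and 3.61%. Of these differences only that of CACGTG from divergent promoters had an interval without 0 (3.71 points, 1.41 to 5.99). No match says only that these letters are not within 100 bp of the summit.

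Signal value, the authors' measure of enrichment, spanned a wide range over the near-start promoters. It ran from 88.7 to 3234 with a median of 194, and the strongest lay at rpl-3 with 1349.0 in replicate 1 and 1903.1 in replicate 2 (3233.9 in the IDR list, chrIII:3867348-3867826). Signal values compare within a list and not between lists. cdc-48.1 followed with 1023.7 and 1602.3 (2608.4 in the IDR list, chrII:10563371-10563753). At cox-5A, of the cytochrome c oxidase complex, the values were 894.7 and 1126.1 (2005.2, chrIII:12905034-12905406). At his-37, a core histone gene, they were 766.0 and 1136.1 (1861.6, chrV:9546792-9547276), and histone genes are near-identical copies, so reads could come from other copies. Both replicates put these 4 far above the median near-start promoter, which had 83.7 in replicate 1 and 112 in replicate 2.

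Among the next, egl-30, a Gq protein of neurons and muscle, had 717.0 in replicate 1 and 891.3 in replicate 2 (1609.5 in the IDR list), in a window that also holds the 5′ end of C53H9.4. sec-61.G had 690.2 and 870.8 (1553.0), and its window also holds F32D8.13. cmtr-1, an enzyme of the mRNA cap, had 739.8 and 784.2 (1524.7). ints-4, a subunit of Integrator, had 628.0 and 782.1 (1382.0), with the summit 34 bp inside the gene. tos-1 had 706.8 and 1042.0 (1755.9), Y39E4B.6 had 569.8 and 798.5 (1369.4), and eelo-2 had 585.5 and 779.3 (1354.6). The rest of the strongest 20 ran from 986.1 at dld-1, a subunit of pyruvate dehydrogenase, to 1185.0 at lgg-2, an LC3 homologue of autophagy. They include ntl-11, Y18D10A.4, drap-1, a repressor of transcription that pairs with DR1, pcn-1, the translation initiation factor gene eif-3.C, cox-5B and the co-chaperone gene bag-1.

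As a class the near-start promoters stood below the divergent ones. The median signal value was 194 (interval 182 to 211) at near-start promoters, 176 (163 to 189) at far-summit and 249 (235 to 265) at divergent promoters, and 185 over all IDR regions. In replicate 1's own list the medians were 83.7, 74.1 and 109, and in replicate 2's they were 112, 104 and 145, in the same order. Near-start promoters were above the median of all IDR regions in 52.3% of cases, 14.5 points less often than divergent promoters (interval of the difference -19.3 to -9.61) and 5.11 points more often than far-summit ones (-0.278 to 10.5, which holds 0). The ratio of the near-start to the far-summit median was 1.10, and it came to 0.982 among entries above the list's median signal value and to 0.940 with a limit of 150 bp in place of 300 bp, so its direction depends on these choices. Near-start regions had a median width of 294 bp, against 394 bp for far-summit and 257 bp for divergent promoters, and the lists hold many regions of exactly 400 bp.

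**Figure D2:**
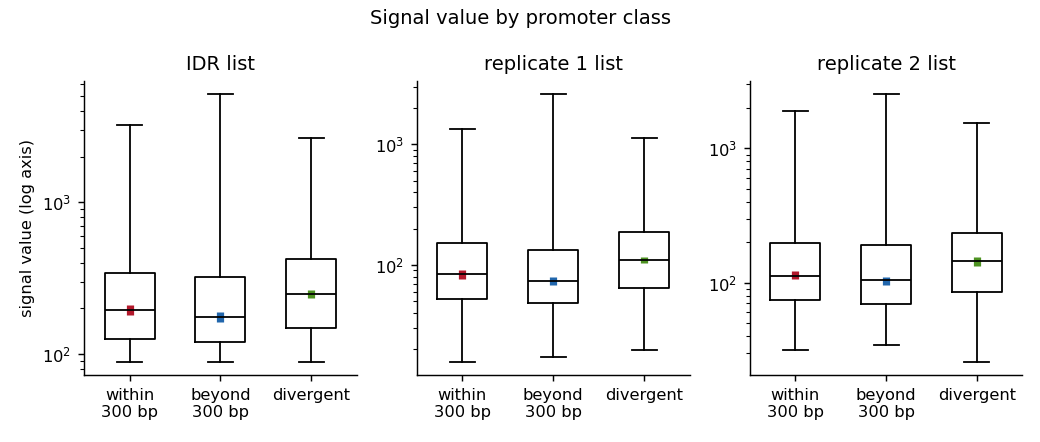
Signal value on log axes for 834 near-start, 547 far-summit and 693 divergent promoters, in the IDR list and in the own list of each replicate. Boxes give quartiles and whiskers the full range, and the coloured bar is the 95% interval of the median, which for near-start promoters is 182 to 211 in the IDR list.

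The summits were not spread evenly about the 5′ end, although the rule allows 300 bp on either side. Of the near-start promoters, 739 (88.6%, interval 86.3 to 90.7) had the summit upstream, at a median of -137 bp (-143 to -131, negative values lie upstream). Of the weaker candidates that met the same rule 58.4% lay upstream, a difference of 30.2 points (27.3 to 32.8). The other promoter classes lay upstream more often still. The shares were 96.0% of far-summit promoters (near-start minus far-summit -7.37 points, -10.1 to -4.56) and 93.7% of divergent promoters (-5.04, -7.86 to -2.18). Their rule favours this, since their summits may lie 1000 bp upstream but only 500 bp downstream. How much of these differences the rule makes was not tested. Replicate 1's strongest entries alone gave 88.9%, and replicate 2's 87.4%. The densest stretch was 200 to 101 bp upstream with 316 regions, then 300 to 201 bp upstream with 217 and the last 100 bp upstream with 206. From the 5′ end to 100 bp inside there were 56, and beyond that 39.

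**Figure D3:**
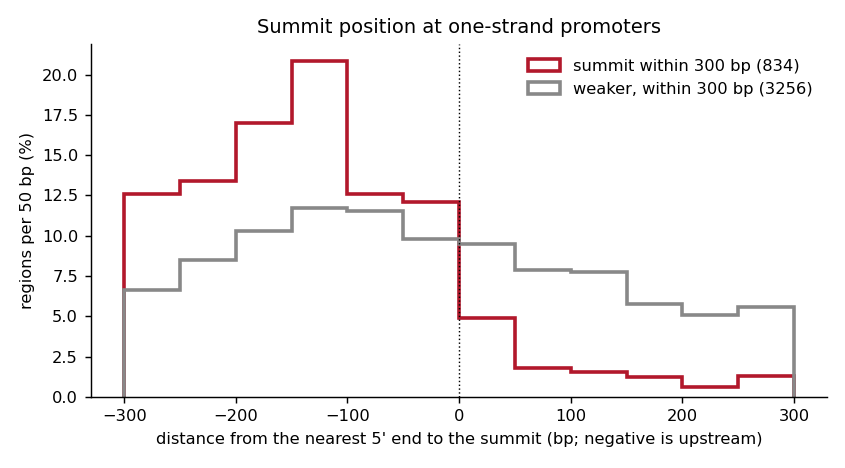
Share of regions in percent per 50 bp (vertical axis) against the distance in bp from the nearest 5′ end to the summit (horizontal axis, negative is upstream) for 834 near-start promoters and 3256 weaker candidates of the same position rule. The near-start promoters drop steeply at the 5′ end, with 88.6% upstream of it, while 58.4% of the weaker candidates lie upstream.

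Signal value went down along the same axis. Its median was 243 (interval 217 to 277) 300 to 201 bp upstream, 192 (176 to 217) 200 to 101 bp upstream, 185 (161 to 226) in the last 100 bp, 142 (110 to 168) from 0 to 100 bp inside and 132 (109 to 194) beyond. The share found among the strongest entries of both replicates went the same way, from 89.9% in the first of these stretches to 71.8% in the last, beside 83.6% of all IDR regions. Those entries are chosen by signal value, so this share is no separate support. The strongest with the summit more than 100 bp inside the transcript lay at tent-5, a poly(A) polymerase gene (109 bp, 299.5 in replicate 1 and 539.4 in replicate 2), at egl-30 (261 bp, 273.8 and 320.6), which thus holds 2 near-start regions, at ZK484.6 (277 bp, 160.8 and 274.5) and at the hnRNP gene hrpu-1 (112 bp, 169.0 and 223.0). The first 3 lay in untranslated exon sequence and the last in an intron.

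Within the 300 bp limit, annotated 5′ ends preceded by the splice acceptor had their summits farther away. The bases TTTCAG, the worm's splice acceptor, came directly before the 5′ end at 172 near-start promoters (20.6%, interval 17.9 to 23.5). The shares were 20.8% of far-summit promoters, 18.6% of divergent promoters and 14.1% of weaker candidates. Among all 25190 distinct autosomal 5′ ends, internal ones included, the share was 11.6%. Near-start minus far-summit was -0.217 points (-4.66 to 4.08), so the share was not seen to be higher beyond 300 bp. At those 172 the median position was -180 bp (-209 to -162), against -123 bp (-131 to -110) at the other 662, and 97.1% lay upstream, against 86.4%. Their median signal values were 230 (187 to 265) and 189 (176 to 206). The 30 bases before the 5′ end at 4 of the strongest are shown because they end in that acceptor, given in capitals.

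rpl-3, chrIII:3867824-3867853, plus strand: taattttttcgtaaaattaatattTTTCAG
cox-5A, chrIII:12905461-12905490, plus strand: ttttctcatcttaaagctcattgtTTTCAG
sec-61.G, chrV:10897144-10897173, minus strand: caccatcggaactcatttataaatTTTCAG
dld-1, chrIV:14464487-14464516, plus strand: aaaatttcttctaattcgatttatTTTCAG

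The summits there lay 283, 288, 228 and 242 bp before the 5′ end. Among near-start promoters 300 to 201 bp upstream 34.6% of 5′ ends had the acceptor, and among those in the last 100 bp 2.91%. Where transcription begins was not measured in these data, so the distance from the summit to the true start was not tested.

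The nearest 5′ end was an internal one, downstream of the gene's first, at 17.5% of near-start promoters, against 16.5% of far-summit promoters (difference 1.05 points, -3.08 to 5.01, which holds 0), 3.17% of divergent promoters (14.3, 11.4 to 17.3) and 29.5% of weaker candidates (-11.9, -14.8 to -8.82). The strongest were drap-1 (351.5 in replicate 1 and 722.9 in replicate 2), scc-2 (449.9 and 525.0), tent-5 and T28F4.5 (292.0 and 388.1). At the 300 bp limit itself the last regions inside were those at tbc-14 and rrsr-1, both at -300 bp with signal values of 406.4 and 239.0. The first outside were those at lit-1, a Nemo-like kinase gene, at -301 bp (117.4) and at tomm-40, the mitochondrial import channel gene, at -302 bp (102.2).

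The IDR list is itself chosen for agreement between the replicates, so their agreement here is a description. Of the 834, 707 (84.8%, interval 82.2 to 87.1) lay among the strongest 4087 entries of both replicates, beside 83.6% of all IDR regions, and 1 among those of neither. Divergent promoters reached 89.2%, 4.41 points more (near-start minus divergent -7.75 to -0.998). For the 832 with a match in both lists, the replicates' summits lay a median of 12 bp apart (11 to 14), against 16 bp at far-summit and 8.0 bp at divergent promoters. With the summit of each replicate in turn, 798 of them (95.9%) met the rule both times.

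The log2 ratio of replicate 2 over replicate 1 had a median of 0.42 over 832 regions, and since the lists are not on 1 scale only the departures from that count. The largest were at idh-1, an isocitrate dehydrogenase gene (15.6 in replicate 1 and 86.8 in replicate 2), elo-1, a fatty acid elongase gene (25.7 and 124.3), dyci-1, a dynein chain gene (18.8 and 84.0), and C02B10.3 (25.4 and 105.6), all on chromosome IV. In all, 12 near-start promoters had a log2 ratio above 1.5, beside 1.54% of all IDR regions (61 of 3966), and 9 of the 12 lay on chromosome IV. Over all IDR regions 12 of 61 did, and the median ratio of the 159 near-start promoters on chromosome IV was 0.42, like that of all. This was seen after the values were, and no cause was tested.

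**Figure D4:**
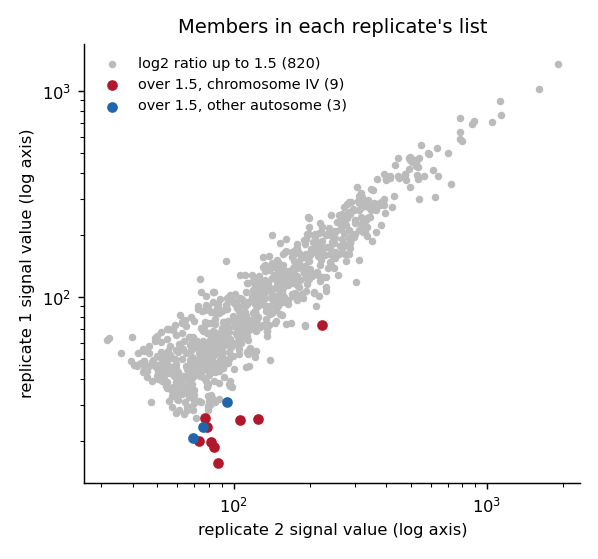
Signal value of the 832 near-start promoters found in both lists, in replicate 2 (horizontal log axis) and replicate 1 (vertical log axis). Of the 12 with a log2 ratio of replicate 2 over replicate 1 above 1.5, the 9 on chromosome IV are red and the other 3 blue, and their replicate 1 values lie between 15.6 and 72.8.

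The summit of near-start promoters was intergenic in 71.8%, against 75.3% of far-summit promoters, 87.6% of divergent promoters and 72.4% of all IDR regions. It lay in an intron in 17.5%, in an untranslated exon in 8.27% and in coding sequence in 2.40%. A noncoding gene overlapped 8.27% of them, against 18.3% of far-summit promoters (difference -10.0 points, -13.9 to -6.35), namely genes annotated as ncRNA at 53, snoRNA at 13 and piRNA at 4. The neighbouring gene upstream was on the same strand at 517 (62.0%), a share that the single-strand rule favours, and then ended a median of 518 bp (465 to 577) before the 5′ end. At far-summit promoters that gap was 1515 bp (1268 to 1763), which the distance rule itself makes longer. At the other 317 near-start promoters the upstream neighbour was on the opposite strand, with a median gap of 2586 bp (2350 to 3254). Near-start promoters were found at 6.57% of the protein-coding genes of chromosome I (189 of 2878), 6.21% of III, 4.72% of IV, 4.23% of II and 3.22% of V (161 of 4994). The medians of their signal values, from 182 on IV to 207 on II, had overlapping intervals. The strongest on each were egl-30 on I, cdc-48.1 on II, rpl-3 on III, eelo-2 on IV and his-37 on V.

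Genes of protein synthesis had near-start promoters more often than the 4.73% of all autosomal protein-coding genes. They were nearest at 10 of 47 large ribosomal subunit genes (21.3%, interval 10.7 to 35.7), led by rpl-3, rpl-24.2 and rpl-41.2, and at 6 of 32 small subunit genes (18.8%, 7.21 to 36.4), led by rps-4, rps-17 and rps-21. All 16 had the summit well upstream, between -298 and -152 bp for the large and between -295 and -201 bp for the small subunit, with median positions of -265 and -260 bp, against -137 bp over all genes. Translation factors had 6 of 41 (14.6%), led by eif-3.C and eif-3.B, mitochondrial ribosomal proteins 10 of 70 (14.3%), led by mrpl-28, and aminoacyl-tRNA synthetases 2 of 32, vars-1 and fars-3, with an interval that holds the share of all genes. A higher share was not particular to near-start promoters. Large subunit genes were nearest to a far-summit promoter in 8.51% and to a divergent one in 19.1%, small subunit genes in 15.6% each. Over all autosomal genes these were 534 and 689 of 17242. Mitochondrial ribosomal proteins had a divergent share of 11.4% and translation factors 26.8%. Synthetases were nearest to a divergent promoter in 5 of 32 (15.6%), a share above that of all genes. Far-summit counts were 2 of 70 (2.86%) for mitochondrial ribosomal proteins and 0 of 32 for synthetases. These counts are too small to tell their shares from that of all genes. The lists were chosen with earlier results of these data known, so the counts describe and do not test.

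Most lists of energy, turnover and transport genes also had a higher share than all genes. Respiratory chain genes had 10 of 61 (16.4%, interval 8.15 to 28.1), led by cox-5A, cox-5B and the cytochrome c1 gene cyc-1, and glycolysis and citric acid cycle genes 7 of 27 (25.9%), led by the hexokinase gene hxk-3, the citrate synthase gene cts-1 and ipgm-1. Proteasome subunits had 5 of 33, led by the deubiquitinase gene rpn-11 (194.1 in replicate 1 and 252.3 in replicate 2) and the ATPase genes rpt-6 and rpt-1. Ubiquitin enzymes and cullins also had 5 of 33, with ubc-3, ubc-25 and cul-4 strongest. Trafficking genes had 10 of 86, led by sec-61.G, vps-25 and sec-24.1. Vacuolar ATPase genes, which acidify organelles, had 3 of 18, namely vha-9, vha-16 and unc-32, and chaperones 3 of 55, dnj-9, sti-1 and dnj-10, both with intervals that hold the share of all genes.

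In the nucleus, pore and transport genes had 9 of 42 (21.4%, interval 10.3 to 36.8), led by npp-8, imb-3, an importin, and npp-13. Cell cycle and DRM genes had 15 of 77 (19.5%, 11.3 to 30.1), led by cdc-48.1, listed there for its name, pcn-1 and lin-9, a subunit of DRM, which represses cell cycle genes. Chromatin enzymes and readers had 11 of 81 (13.6%), led by the histone methyltransferase gene set-4 (372.2 in replicate 1 and 534.8 in replicate 2), the acetyltransferase gene pcaf-1 (227.7 and 300.8) and nurf-1, of the ISWI remodeller NURF (208.7 and 246.2). SWI/SNF subunits themselves had 3 of 12, namely swsn-3 (229.6 in replicate 1 and 219.6 in replicate 2), phf-10 (68.3 and 82.6) and the bromodomain gene swsn-9 (31.8 and 60.3). Polymerase II, TFIID and Mediator genes had 7 of 51, led by rpb-11, mdt-22 and sop-3, splicing genes 5 of 52, led by mog-4, rsp-6 and emb-4, and histone genes 2 of 68, his-37 and his-72. The intervals of the splicing and histone lists hold the share of all genes.

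Among tissue lists, synaptic and neuronal genes had 12 of 45 (26.7%, interval 14.6 to 41.9), led by egl-30, the kinesin adaptor gene unc-16 (310.3 in replicate 1 and 428.1 in replicate 2) and the Rab2 gene unc-108 (222.9 and 382.3). Body wall muscle genes had 6 of 33 (18.2%, 6.98 to 35.5) at lower signal, with a median of 115 beside 197 over all genes, led by the myosin chaperone gene unc-45, the calcium pump gene sca-1 and hlh-1, the MyoD homologue. Nuclear hormone receptors had 15 of 247 (6.07%), led by nhr-87, nhr-256 and nhr-66, with a median signal of 140, and homeobox genes 4 of 69 (5.80%), with unc-62, the Hox gene lin-39 and unc-42 strongest. The intervals of both lists hold the 4.73% of all genes. At the other end were 7 of 305 F-box genes, with fbxa-24, fbxa-10 and fbxc-33 strongest, 2 of 1277 chemoreceptors (0.157%), namely srh-2 and srbc-58, 1 of 237 C-type lectins, clec-196, 0 of 146 cuticle collagens, which allows a share of up to 2.49%, and 0 of 107 neuropeptide genes, up to 3.39%. Chromatin of the whole animal was used, and how binding in a few cells shows in it was not tested.

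Over the 28 lists, the interval lay above the share of all genes in 16, below it in 5 and held it in 7. Lists also differed in how their genes were spread over the promoter classes. Of all autosomal genes 815 were nearest to a near-start promoter, 534 to a far-summit and 689 to a divergent one. Respiratory chain genes had 10, 5 and 9, and nuclear pore and transport genes 9, 2 and 6. In both lists a share above that of all genes was thus not limited to near-start promoters. Proteasome genes had 5, 3 and 10, translation factors 6, 3 and 11, and cell cycle and DRM genes 15, 2 and 14. Body wall muscle genes had 6, 8 and 0, nuclear hormone receptors 15, 8 and 1, and synaptic and neuronal genes 12, 7 and 2. These tissue and receptor lists had few divergent promoters among those bound, but the difference between lists was not tested.

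**Figure D5:**
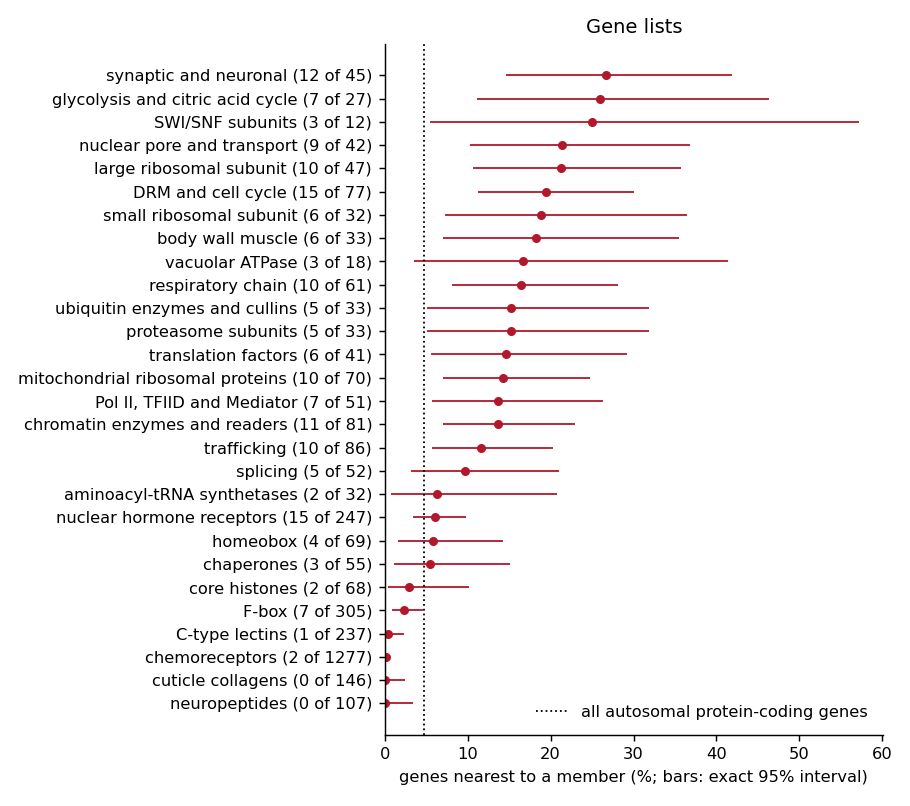
Share in percent of the autosomal genes of each of 28 lists that are nearest to a near-start promoter (horizontal axis), with exact 95% intervals as bars and the count in brackets. The dotted line is the 4.73% of all autosomal protein-coding genes, with 16 intervals to the right of it and 5 to the left.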

How the data were processed

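ChIP-seq of SWSN-7-GFP was done by the authors on 2 biological replicates of 1 group. According to the deposited readme of each sample, the authors aligned to ce10 and ce11, called candidate lists per replicate and pooled, and derived the IDR list from these. The 3 candidate lists of ce11 hold 30000 entries each. Aligner, caller and filters: not given in the sources used here. Each deposited list holds a signal value and a −log10 q-value per region. The q-value had 1 value over the IDR list and ranked nothing. Signal value was used within a list only. Read depth is unknown. The ce10 lists and control data were not used here.

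Entries of ce11 lists overlapping by 1 bp were merged, keeping the strongest summit. Windows printed as sequence exclude chromosome I. Classes came from Ensembl release 115 gene models and sequence from RefSeq WBcel235, using Python 3.11.15, scipy 1.17.1, numpy 2.4.6 and pandas 2.3.3, with figures drawn in matplotlib 3.10.9. Shares have exact Clopper-Pearson, medians order-statistic and differences Newcombe intervals (95%). With 1 group no p-value was computed, and regions are not replicates. A replicate's value is its strongest overlapping entry. The 15 motifs were searched in 200 bp windows on both strands. Functions were tested on simulated data. Members, motifs and 28 gene lists were chosen with earlier results of these data known. Genes named are those at the 20 strongest members, the strongest per autosome, up to 3 per list, 2 on each side of the limit, and 4 each for summits over 100 bp downstream, internal 5′ ends and replicate difference. Alternatives were entries above the list's median signal value, the strongest 4087 entries of each replicate alone, other limits, windows and 5′ ends, and unmerged entries.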

Additional observations from a re-analysis of the deposited data

How the results depend on the processing

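No paired analysis was possible because the series holds 1 group. For each replicate alone its strongest 4087 entries were used, as many as the IDR list holds. That size partly sets the number of members beforehand, so this number does not test reproducibility. Without replicate 1 or without replicate 2, the number of members ran from 822 to 846, their share of the regions from 20.8 to 21.2%, the share upstream from 87.4 to 88.9%, the median position from -138 to -137 bp, the ratio of median signal value to far-summit promoters from 1.07 to 1.09 and to divergent promoters from 0.754 to 0.756. GC ran from 40.0 to 41.0%, its excess over weaker candidates from 3.0 to 3.5 points, T runs on the gene's strand minus the other from 2.92 to 3.19 points, and ribosomal protein genes from 14 to 15. The ratio to far-summit promoters was 1.10 as reported and turned below 1 among the entries above the list's median signal value (0.982) and with a limit of 150 bp (0.940), and was 1.19 with a limit of 500 bp and 1.02 with the window of 500 bp upstream.

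Among those entries there were 443 members (22.1% of regions), 93.0% upstream at -148 bp, with a ratio to divergent promoters of 0.910, a GC excess of 3.50 points and a T run difference of 1.81 points. A limit of 150 bp gave 449 (11.3%), 84.6%, -76.0 bp, 0.715, 3.50 and 3.12 points and 0 ribosomal protein genes, since all 16 had the summit farther off. A limit of 500 bp gave 27.5%, -162 bp, 0.777, 4.0 and 2.38 points and 25 ribosomal protein genes. The 500 bp window gave 24.5%, -140 bp, 0.766 and 2.98 points. With the most upstream 5′ end of each gene the values were 18.1%, -139 bp and 0.807, and with unmerged entries 20.7% and 0.783. Windows of 100 bp gave 46.0% GC, an excess of 7.0 points and a T run difference of 0.959 points, and windows of 400 bp 36.6%, 0.125 and 8.51 points. Apart from the ratio to far-summit promoters, no result listed here changed direction, and the cause of these shifts was not tested except where the window or limit itself sets it. Depth is unknown, the candidate lists stop at 30000 entries, and intervals cover counting error only.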

Other observations

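The same scan of 8-base words gave others that recur at near-start promoters. TCTCTCGT, the reverse complement of ACGAGAGA, lay at 7.31% of near-start promoters, 8.41% of far-summit promoters, 4.18% of divergent promoters, 1.72% of weaker candidates and 1.22% of the stretches before all autosomal 5′ ends. CTCTCTCG lay at 7.31% of near-start promoters, 8.04% of far-summit promoters, 4.04% of divergent promoters, 1.54% of weaker candidates and 0.922% of those stretches. Both share letters with GAGAGA and with each other, were picked by their difference from weaker candidates, and were not tested further.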
